A study of Rattus norvegicus with 35 samples.

Results

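The comparison described here sets 3 arrays of primary rat hepatocytes exposed to propiconazole at 30 uM against 3 arrays of hepatocytes given DMSO, the solvent control, at 0.1%. These 6 arrays were chosen by their titles out of 35 in the series, and 10490 genes were compared in them. Every culture was exposed for 72 h through the medium, and the study describes its replicates as biological. The labels state no strain, sex or age of the rats, and no solvent content of the propiconazole cultures. Each title carries 1 of 3 codes, Rs256, Rs293 or Rs304, and each group holds 1 array per code, except PCN, which has none of Rs256. The labels do not say what a code marks, so differences were taken within a code. Further groups served for 4 comparisons of the middle dose: propiconazole at 10 uM, propiconazole at 100 uM, and the triazoles myclobutanil and triadimefon at 30 uM, with 3 arrays each. Phenobarbital at 200 uM (3 arrays) and PCN at 30 uM (2 arrays), the study's positive controls, are quoted for a few genes and for their counts of called genes.

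Propiconazole is a triazole fungicide. Triazoles of this use block the fungal form of CYP51, the lanosterol demethylase of sterol synthesis, and the animal enzyme belongs to the same family. In rodent liver such compounds are also known as inducers of drug-metabolizing enzymes, which the nuclear receptors CAR and PXR switch on when they bind or sense foreign chemicals. Another receptor, PPARalpha, controls the genes with which hepatocytes take up and burn fatty acids.

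The deposited values lie on a log-like scale whose base the sources used here do not give, so differences are in units of that scale after quantile normalization and are not folds. If the control transcripts bioC, bioD and cre were added at 5, 25 and 100 pM, a doubling amounted to 0.487 units (SD 0.0241, 35 arrays). The propiconazole 30 uM group held both extremes of array spread in the whole series. Its Rs293 array had a standard deviation over probe sets of 0.941 and its Rs304 array one of 0.646, whereas the arrays of all other groups lay between 0.659 and 0.754. Its Rs256 array stood at 0.734, and the DMSO arrays were at 0.700 (Rs256), 0.672 (Rs293) and 0.692 (Rs304). Quantile normalization removed this difference in spread, and the counts of the main gene lists are also given without one or the other of these arrays. The 3' minus 5' signal of Actb, a sign of RNA quality, was 0.987, 0.994 and 0.567 units in the Rs256, Rs293 and Rs304 arrays of propiconazole and 0.810, 0.744 and 0.744 in those of DMSO, and its part in the results was not tested. Hepatocyte genes were near the top of every array used: Apoa1, an apolipoprotein, averaged 3.94 units with propiconazole and 3.80 with DMSO, and Hnf4a, a liver transcription factor, 2.04 and 2.07. Alb was the brightest gene and was fixed at one value by the normalization. Genes of other liver cells stood on both sides of the array median. In all 6 arrays the macrophage genes Cd163 and Adgre1 and the endothelial genes Pecam1, Stab2 and Lyve1 lay below it, while the macrophage genes Lyz2, Cd14, C1qb and Aif1 and the endothelial genes Eng and Egfl7 lay above it. Lyz2 averaged 1.33 units with propiconazole and 1.17 with DMSO, and Cd14 1.44 and 1.31.

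With propiconazole at 30 uM 275 genes were called, 184 higher and 91 lower than with DMSO, at an adjusted p below 0.05 (limma, Benjamini-Hochberg over all genes, Rs code as a block). That is 2.62% of the 10490 genes tested, 1.75% higher and 0.867% lower, and 1648 genes had an unadjusted p below 0.05. After quantile normalization all 275 differed in the same direction within each of the 3 codes. The calls came from these same values, so the shared direction is no separate evidence. On the values as deposited the Rs293 difference had the opposite sign for some of them, such as Cyp4a3 and Ccn2. Most differences were small: the median size was 0.25 units, 17 of the genes that rose and 16 of those that fell moved by more than 0.5 units, and 4 moved by more than 1 unit. Without the code as a block 4 genes were called, namely Acat2, Cyp3a23-3a1, Ugt2b1 and Cyp4a3. On the values as deposited 138 genes were called, of which 125 were higher and 13 lower, and 103 of them were among the 275. Leaving out code Rs256, Rs293 or Rs304 gave 67, 140 and 37 called genes. Without the Rs256 or the Rs293 array of propiconazole 135 and 172 were called, and without the Rs256, Rs293 or Rs304 array of DMSO 117, 84 and 128.

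**Figure D1:**
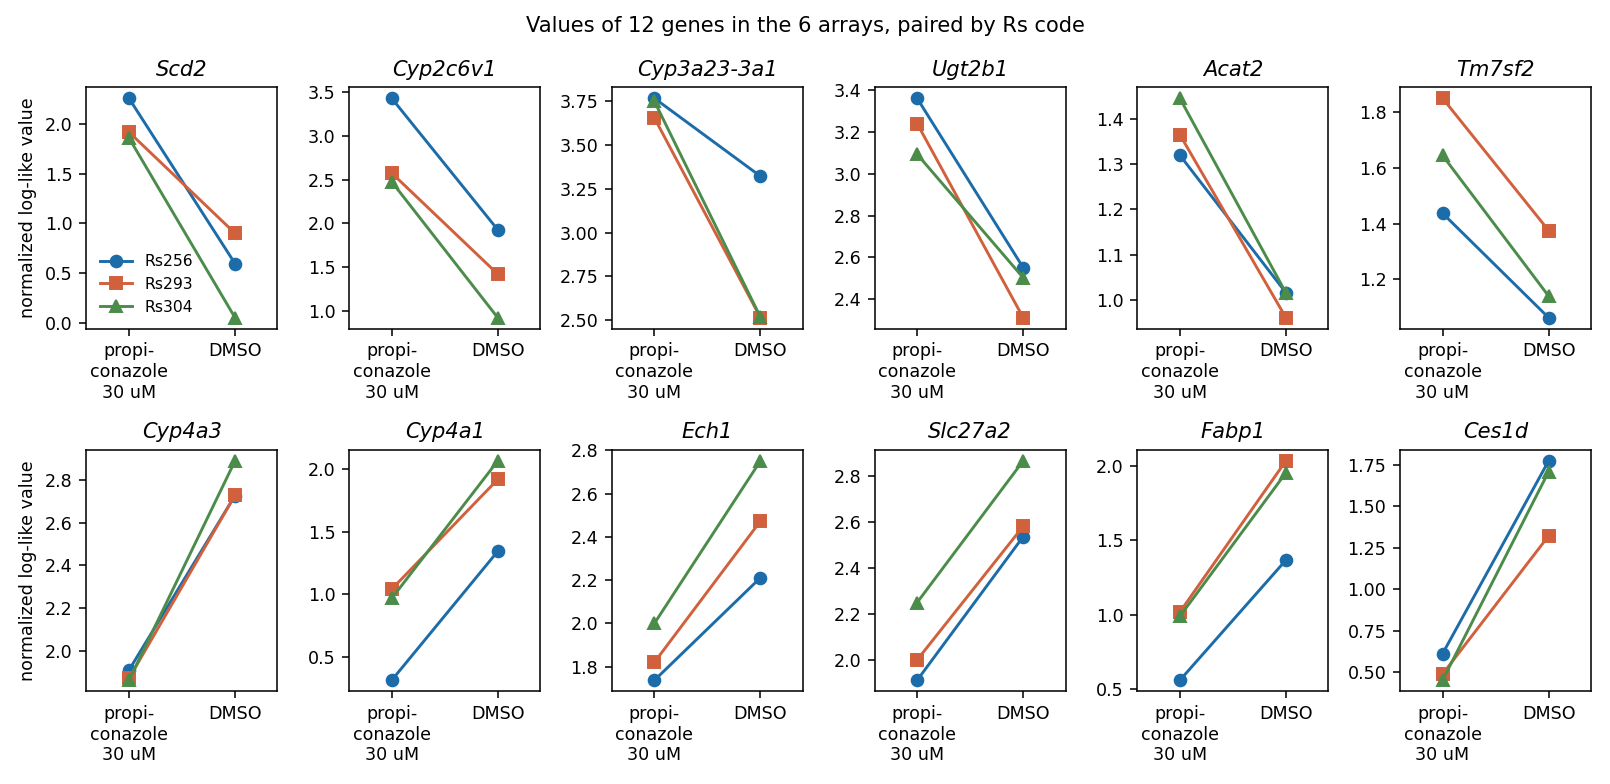
Normalized log-like values (vertical axes, in units) of 12 genes in the 3 propiconazole 30 uM arrays (left in each panel) and the 3 DMSO arrays (right), with lines joining arrays of the same Rs code. The 6 genes of the upper row are higher with propiconazole in all 3 codes, and the 6 of the lower row are lower in all 3, for instance Cyp4a3 at 1.86 to 1.91 with propiconazole and 2.73 to 2.89 with DMSO.

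Cytochrome P450 genes known as targets of PXR and CAR were among the clearest rises. Of 17 tested genes on this list 8 rose and 0 fell, with a median difference of 0.31 units, against a median of -0.00 over all genes. Cyp2c6v1, a drug-metabolizing P450 of rat liver, had 3.43, 2.58 and 2.48 units in the Rs256, Rs293 and Rs304 arrays of propiconazole, against 1.93, 1.42 and 0.92 in those of DMSO. Its groups did not overlap, the Rs256 array was the highest in both, and the difference was 1.40 (SE 0.128, adjusted p = 5.98e-07). Cyp3a23-3a1, the rat P450 most used as a readout of PXR, had 3.76, 3.65 and 3.75 units with propiconazole and 3.32, 2.52 and 2.52 with DMSO. After quantile normalization its treated arrays lay close together, while the DMSO array of Rs256 was well above the other DMSO arrays. That normalization sets values by rank, and with treatment this gene ranked near the top. The same 3.65 units recurred in the Rs293 arrays of propiconazole, myclobutanil and triadimefon at 30 uM. Comparisons among its high values are limited by this. The difference was 0.94 (SE 0.154, adjusted p = 0.00202). On the values as deposited with the Rs293 array of propiconazole left out it was 0.79 (adjusted p = 0.283). Cyp3a2, a further member of the subfamily, had 1.08, 0.36 and 0.24 units with propiconazole and 0.13, -0.27 and -0.27 with DMSO, with no overlap (difference 0.70, SE 0.141, adjusted p = 0.00828). Cyp3a18 rose by 0.58 (SE 0.149, adjusted p = 0.0324) and Cyp3a9 by 0.19 (SE 0.0431, adjusted p = 0.0146). Of 6 fits that each left out 1 array of the groups compared, Cyp2c6v1 and Cyp3a23-3a1 were called in 6. Cyp3a2 was called in 5, Cyp3a9 in 2 and Cyp3a18 in 1. Probe sets of such close relatives may pick up each other's transcripts.

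The remaining rises on this list were a conjugating enzyme, an export pump and the electron donor of the P450s. Ugt2b1, which attaches glucuronic acid to steroids and drugs, had 3.36, 3.24 and 3.09 units with propiconazole and 2.55, 2.31 and 2.50 with DMSO. All treated arrays stood above all DMSO arrays, and the difference was 0.78 (SE 0.0984, adjusted p = 0.00011). Abcc2, the pump that exports conjugates into bile, had 3.02, 2.37 and 2.90 units with propiconazole and 2.44, 1.78 and 2.39 with DMSO. Its groups overlapped because the Rs293 arrays were low in both, and within codes it rose by 0.56 (SE 0.15, adjusted p = 0.0413). Por, which passes electrons to all microsomal P450s, rose by 0.31 (SE 0.0755, adjusted p = 0.024). Of the 6 fits without an array, Ugt2b1 was called in 6, Por in 3 and Abcc2 in 1. Counting this list again without the Rs293 array of propiconazole gave 6 rises, without its Rs304 array 6, on the values as deposited 6 and without the block 2. After scaling to equal median absolute deviation 3 members rose. On the values as deposited with the Rs293 array left out, the one remaining call was Cyp2c6v1, at 1.38 units (adjusted p = 0.00252). Cyp2b1 and Cyp2b2, the usual markers of CAR, share a probe set that names both and are not reported.

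The promoters of the 3 strongest CYP3A rises are shown because PXR binds repeats of a short hexamer. The RefSeq promoters (build GRCr8, 250 bases before to 50 after the start site) are at chr12:14398754-14399053, minus strand, for Cyp3a23-3a1, at chr12:14343808-14344107, minus strand, for Cyp3a2 and at chr12:13994062-13994361, plus strand, for Cyp3a18. Capitals mark matches to the direct repeat TGAACTNNNTGAACT or, in Cyp3a18, to its single hexamer TGAACT, searched on both strands.
Cyp3a23-3a1: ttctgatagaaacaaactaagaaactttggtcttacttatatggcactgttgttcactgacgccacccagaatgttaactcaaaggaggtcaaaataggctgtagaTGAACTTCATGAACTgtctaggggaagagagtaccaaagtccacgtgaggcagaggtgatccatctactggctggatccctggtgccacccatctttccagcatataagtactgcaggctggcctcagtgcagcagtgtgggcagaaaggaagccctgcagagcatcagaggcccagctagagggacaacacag
Cyp3a2: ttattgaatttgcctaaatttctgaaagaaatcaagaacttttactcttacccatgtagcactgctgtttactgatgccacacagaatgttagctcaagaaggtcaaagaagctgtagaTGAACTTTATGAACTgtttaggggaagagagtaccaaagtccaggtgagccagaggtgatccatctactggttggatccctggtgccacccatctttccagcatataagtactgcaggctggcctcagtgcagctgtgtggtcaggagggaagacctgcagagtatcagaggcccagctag
Cyp3a18: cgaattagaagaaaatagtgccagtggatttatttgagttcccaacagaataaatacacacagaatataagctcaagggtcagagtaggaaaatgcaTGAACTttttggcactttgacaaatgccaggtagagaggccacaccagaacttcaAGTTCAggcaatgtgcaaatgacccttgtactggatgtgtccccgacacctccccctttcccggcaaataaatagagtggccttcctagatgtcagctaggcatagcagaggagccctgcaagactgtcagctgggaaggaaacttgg
The repeat began 144 bases before the start site in Cyp3a23-3a1 and 131 bases before it in Cyp3a2. It was found in 2 of 33469 promoters of the table (0.00598%), those same genes. Every letter of both hexamers was fixed in the search, so repeats with other letters were not counted. The share is therefore no measure of how rare PXR sites are. The Cyp3a18 window held the hexamer in either direction, and 14.5% of all promoters held at least 1. The repeat contains the hexamer, so both genes with the repeat are among these. Of 8783 tested genes with a promoter in the table, 924 held the hexamer. Among named genes it was in rises such as Ugt2b1 and Abcc2. It was also in the falls Fabp1, Cyp4a3, C4bpb, Slco1b2 and Cyp2c13, and in Cyp26a1, which was not called. A match describes the letters of this window and not a bound site.

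Other enzymes of detoxification moved less uniformly. Of 25 tested NRF2 targets 5 rose and 0 fell, with a list median of 0.13 units. Gstm2 and Gstm3, glutathione transferases of the mu class, rose by 0.56 (SE 0.143, adjusted p = 0.0342) and 0.55 (SE 0.133, adjusted p = 0.024). The transferases Gstk1 and Gsta4 rose by 0.47 (adjusted p = 0.0386) and 0.42 (adjusted p = 0.0219), and Hmox1, heme oxygenase, by 0.40 (adjusted p = 0.046). Of the 6 fits without an array, Gstk1 and Gsta4 were each called in 1, and Gstm2, Gstm3 and Hmox1 in 0. Nqo1, a quinone reductase often taken as the reference gene of NRF2, had a difference of 0.13 (adjusted p = 0.501) and Gstp1, the pi-class transferase, one of -0.14 (adjusted p = 0.769). The count depended on the processing: 1 member was called without the Rs293 array of propiconazole and 2 without its Rs304 array. On the values as deposited, after scaling to equal median absolute deviation or without the block 0 were called. Ggt1, which breaks down extracellular glutathione, had 1.14, 1.33 and 1.50 units with propiconazole and 0.66, 0.62 and 0.72 with DMSO, a gap between the groups in every code (difference 0.66, SE 0.139, adjusted p = 0.0101). Among 9 tested genes of glucuronidation 2 rose, Ugt2b1 and Ugt2b35 (0.26, adjusted p = 0.0352), and 1 was called without the Rs293 array of propiconazole, on the values as deposited or without the block. After scaling to equal median absolute deviation 0 of the 9 were called. No member of the 7 tested targets of the dioxin receptor AhR was called, and Cyp1a1, its main P450 target, differed by -0.03 (adjusted p = 0.931).

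Several genes of fatty acid oxidation that PPARalpha controls were lower with propiconazole. Of 26 tested members 12 fell and 0 rose, the median difference was -0.39 units, and all 26 lay below 0, compared with 5167 of all 10490 genes above 0. Like the other lists, this one was drawn up with earlier results of these data known. Cyp4a1, a fatty acid omega-hydroxylase and the textbook PPARalpha target in rat, had 0.31, 1.04 and 0.97 units with propiconazole and 1.34, 1.92 and 2.07 with DMSO. The groups did not overlap although Rs256 was the low array of both, and the difference was -1.0 (SE 0.202, adjusted p = 0.00815). Cyp4a3, a hydroxylase of the same subfamily, had 1.91, 1.87 and 1.86 units with propiconazole and 2.73, 2.73 and 2.89 with DMSO, so that each group was tight and the groups lay far apart (difference -0.90, SE 0.166, adjusted p = 0.00508). Fabp1, the fatty acid carrier of the liver cell, had 0.56, 1.02 and 0.99 units with propiconazole and 1.37, 2.03 and 1.95 with DMSO. Every treated array was below every DMSO array, and the difference was -0.93 (SE 0.199, adjusted p = 0.0108).

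The falls covered uptake, oxidation and secreted signals. Cd36, a fatty acid uptake receptor, differed by -0.71 (SE 0.163, adjusted p = 0.0165). In beta-oxidation, Ech1, Eci1 and Decr1, the auxiliary enzymes that deal with double bonds, differed by -0.63 (SE 0.102), -0.51 (SE 0.0784) and -0.41 (SE 0.0793), with adjusted p of 0.00202, 0.00116 and 0.00692. Acadm, the medium-chain dehydrogenase, differed by -0.37 (adjusted p = 0.0138), the thioesterase Acot2 by -0.41 (adjusted p = 0.00577) and the pantetheinase Vnn1 by -0.34 (adjusted p = 0.0413). Of the 6 fits without an array, Ech1, Eci1 and Acot2 were called in 6. Decr1 was called in 5, Acadm in 3, Cd36 in 1 and Vnn1 in 0. Fgf21, a fasting hormone of the liver, had 0.99, 1.27 and 1.14 units with propiconazole and 1.60, 1.98 and 1.48 with DMSO, without overlap (difference -0.56, SE 0.102, adjusted p = 0.00534). Angptl4, a secreted inhibitor of lipoprotein lipase, had 1.49, 2.04 and 1.33 units with propiconazole and 2.14, 2.21 and 2.07 with DMSO. Its Rs293 arrays were close together while the other codes were apart (difference -0.52, SE 0.118, adjusted p = 0.0158). Cpt1a, which admits fatty acids to the mitochondrion, had a difference of -0.60 and missed the threshold (adjusted p = 0.0618). Slc27a2, an acyl-CoA synthetase of fatty acid uptake that was not on the list, had 1.91, 2.00 and 2.25 units with propiconazole and 2.54, 2.58 and 2.87 with DMSO (difference -0.61, SE 0.109, adjusted p = 0.00445).

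The falls depended on the normalization. On the values as deposited, the Rs293 difference was 0.07 units for Cyp4a3, 0.88 for Eci1, 0.80 for Angptl4 and 0.39 for Slc27a2, opposite in sign to the other codes, and 1 of the 26 list members was called, Cyp4a1. The list median on that scale was -0.12, and it was -0.38 once the Rs293 array of propiconazole was left out, with 0 members called. Scaling to equal median absolute deviation, which also evens out array spread, left 0 members called, with a median of -0.10. Median centring left 1, with a median of -0.13. After quantile normalization 10 members fell without the Rs293 array and 9 without the Rs304 array, with medians of -0.40 and -0.35. Without the block 1 member was called, Cyp4a3.

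**Figure D2:**
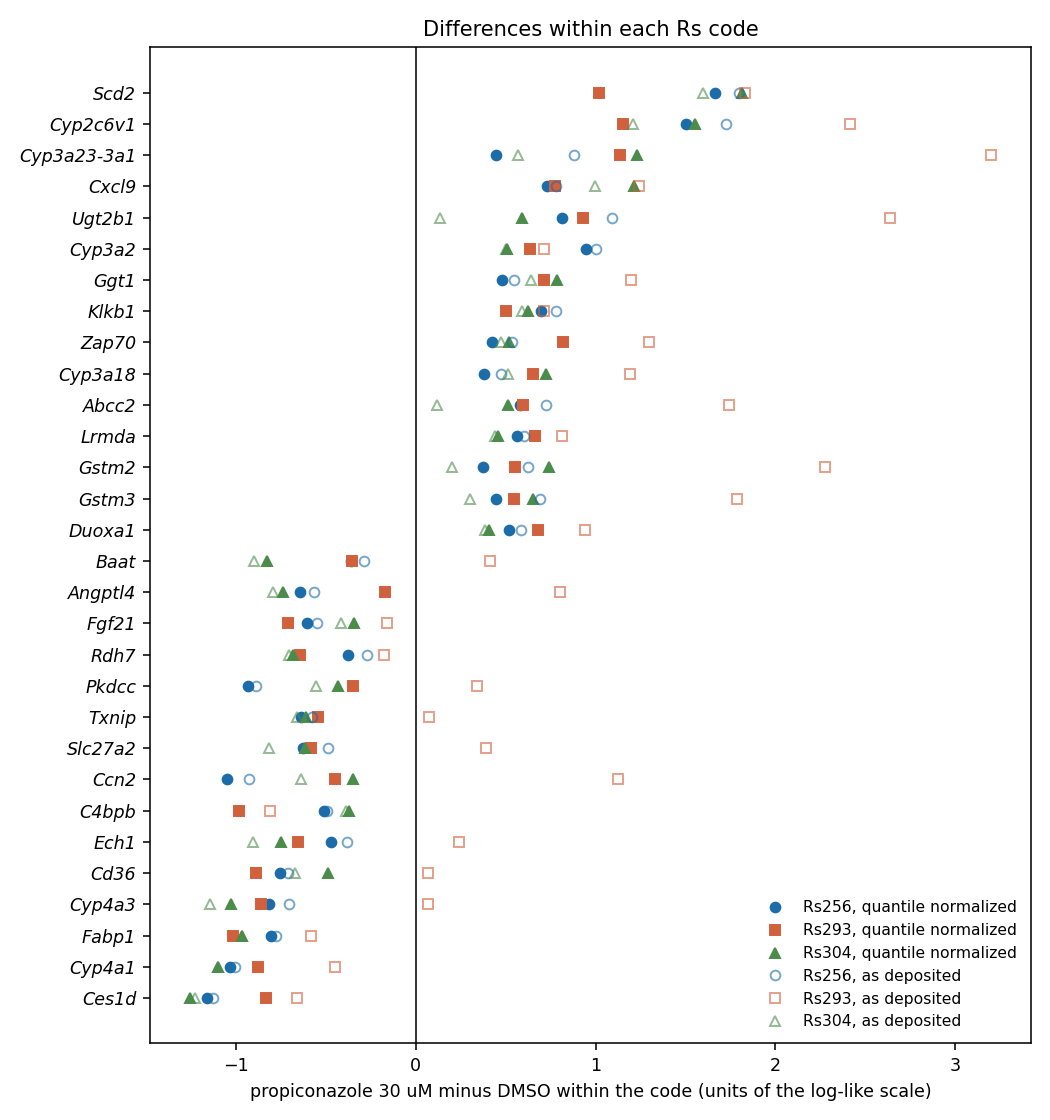
Difference of propiconazole 30 uM minus DMSO (horizontal axis, in units) within each Rs code for the 15 largest called rises and the 15 largest called falls, after quantile normalization (filled) and on the values as deposited (open). All filled points of a gene lie on one side of 0, while the open Rs293 squares lie far to the right for many genes, at 3.20 units for Cyp3a23-3a1 and on the other side of 0 for falls such as Ccn2 at 1.13.

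The Fabp1 promoter is shown because PPARalpha binds direct repeats spaced by a single base. The RefSeq window (GRCr8, chr4:104749090-104749389, plus strand) holds AGGNCANAGGNCA on the minus strand, in capitals, 77 bases before the start site.
Fabp1: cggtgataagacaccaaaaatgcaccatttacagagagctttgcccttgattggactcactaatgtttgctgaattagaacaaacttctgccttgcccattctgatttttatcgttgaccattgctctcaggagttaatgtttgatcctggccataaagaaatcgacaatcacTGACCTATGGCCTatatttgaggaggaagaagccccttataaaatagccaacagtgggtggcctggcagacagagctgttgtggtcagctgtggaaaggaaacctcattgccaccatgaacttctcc
This pattern was in 139 of 33469 promoters (0.415%), and Fabp1 was the only one of the 58 named genes with a promoter in the table to hold it. No match in another window says only that these letters are not there.

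Some genes of cholesterol synthesis were higher with propiconazole. Of 17 tested members 6 rose and 0 fell, 16 lay above 0, and the median was 0.21 units. Acat2, the cytosolic thiolase of the first step, had 1.32, 1.37 and 1.45 units with propiconazole and 1.02, 0.96 and 1.02 with DMSO. Both groups were tight and did not overlap (difference 0.38, SE 0.0614, adjusted p = 0.00196). Tm7sf2, a sterol reductase that acts right after the CYP51 step, had 1.44, 1.85 and 1.64 units with propiconazole and 1.06, 1.38 and 1.14 with DMSO, higher in every code (difference 0.45, SE 0.0729, adjusted p = 0.00196). Lss, Pmvk, Sc5d and Sqle, further enzymes of the route, rose by 0.28, 0.28, 0.26 and 0.19 units, with adjusted p of 0.0247, 0.0077, 0.00865 and 0.024. Cyp51 itself had 2.60, 2.65 and 2.55 units with propiconazole and 2.18, 2.43 and 2.34 with DMSO. Its groups did not overlap, and its difference of 0.28 (SE 0.0933) missed the threshold (adjusted p = 0.109). Of 10 tested genes of cholesterol sensing and transport, Insig1, which holds back the sterol regulator SREBP, rose by 0.31 (adjusted p = 0.0106) and Stard4, a cholesterol carrier, by 0.17 (adjusted p = 0.0256). Of those 10, 1 was called without the Rs293 array of propiconazole, without its Rs304 array or on the values as deposited. Without the block or after scaling to equal median absolute deviation 0 were called. In the synthesis list 5 members rose without the Rs293 array and 5 without the Rs304 array, 3 on the values as deposited, and 1, Acat2, without the block. After scaling to equal median absolute deviation 3 rose. On the values as deposited with the Rs293 array left out, 0 of the 17 were called.

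Among genes of fatty acid desaturation, 3 rose. Scd2, a stearoyl-CoA desaturase, showed the largest difference of all called genes after quantile normalization: 2.26, 1.92 and 1.86 units with propiconazole against 0.59, 0.90 and 0.05 with DMSO. The groups were far apart, and the difference was 1.50 (SE 0.185, adjusted p = 0.000104), or 1.74 on the values as deposited (adjusted p = 1.66e-05), where Cyp2c6v1 had the larger difference at 1.78. The other probe sets naming Scd2 alone were dimmer and gave 0.61, 0.35 and 0.23. Of 20 tested genes of fatty acid synthesis, desaturation and elongation 4 rose and 0 fell, with a median of 0.16 units. Besides Scd2 these were Fads1 and Fads2, the desaturases of polyunsaturated fatty acids, at 0.52 (SE 0.102, adjusted p = 0.00692) and 0.32 (SE 0.068, adjusted p = 0.0108), and Acss2, which makes acetyl-CoA from acetate, at 0.43 (SE 0.0723, adjusted p = 0.00257). Without the Rs293 array of propiconazole 4 members rose, without its Rs304 array 3, on the values as deposited 5 and without the block 0. After scaling to equal median absolute deviation 3 rose. On the values as deposited with the Rs293 array left out, 1 was called.

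Several of the larger changes belonged to none of these groups. Ces1d, a carboxylesterase that splits ester drugs and lipids, fell the most, with 0.61, 0.49 and 0.45 units with propiconazole and 1.77, 1.32 and 1.71 with DMSO. No treated array came near a DMSO array, and the difference was -1.09 (SE 0.202, adjusted p = 0.00577). Cxcl9, an interferon-induced chemokine, had 0.98, 1.31 and 1.86 units with propiconazole and 0.25, 0.54 and 0.64 with DMSO. The spread among its treated arrays was wide and still clear of DMSO (difference 0.91, SE 0.169, adjusted p = 0.00577), and its second probe set gave 0.88. Klkb1, the plasma prekallikrein secreted by liver, rose by 0.61 (SE 0.119, adjusted p = 0.00707), Duoxa1, a maturation factor of dual oxidase, by 0.54 (SE 0.0911, adjusted p = 0.00258) and Lrmda by 0.56 (SE 0.145, adjusted p = 0.0352). Zap70, a kinase best known from T cell receptor signalling, rose by 0.59 (SE 0.129, adjusted p = 0.0131), and its groups overlapped as the Rs256 array was high in both. In the 6 fits that each left out 1 array, Ces1d, Cxcl9, Klkb1 and Duoxa1 were called 6 times. Zap70 was called in 3 of them and Lrmda in 0.

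Among the further falls, Ccn2, a matricellular growth factor, had 1.79, 2.86 and 2.70 units with propiconazole and 2.84, 3.31 and 3.05 with DMSO. Its groups overlapped at the edges (difference -0.62, SE 0.158, adjusted p = 0.0337), and on the values as deposited the difference was -0.15 (adjusted p = 0.804). Txnip, a thioredoxin-binding protein that follows glucose, differed by -0.60 (SE 0.125, adjusted p = 0.00976), the secreted kinase Pkdcc by -0.57 (SE 0.128, adjusted p = 0.0141) and C4bpb, a complement regulator, by -0.62 (SE 0.162, adjusted p = 0.036). Of the 6 fits without an array, Txnip was called in 5, Pkdcc in 3, and Ccn2 and C4bpb in 1 each. In steroid and retinoid metabolism 4 of 26 tested genes fell and 0 rose: the retinol enzymes Rdh7 (-0.57, adjusted p = 0.0299) and Retsat (-0.40, adjusted p = 0.0207), Hsd3b5 (-0.33, adjusted p = 0.0324) and the male-type P450 Cyp2c13 (-0.30, adjusted p = 0.0165). The median of that list was -0.04 units after quantile normalization and 0.02 as deposited. Its falls numbered 3 without the Rs293 array of propiconazole, 0 without its Rs304 array and 1 on the values as deposited. They numbered 0 without the block or after scaling to equal median absolute deviation. Cyp26a1, which degrades retinoic acid, differed by 0.02 (adjusted p = 0.945).

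In bile acid synthesis and transport 1 of 16 tested genes rose, Abcc2, and 2 fell. These were Baat, which conjugates bile acids with amino acids (-0.51, adjusted p = 0.0247), and Slco1b2, an uptake carrier of the sinusoidal membrane (-0.24, adjusted p = 0.0176). Without the Rs304 array of propiconazole 0 members of this list rose and 0 fell. The same held without the block or after scaling to equal median absolute deviation, while without the Rs293 array 1 rose and 2 fell. Cyp7a1, whose enzyme limits the rate of the classical bile acid route, had 0.75, 0.14 and 0.00 units with propiconazole and 0.03, 0.07 and 0.28 with DMSO, with no common direction (difference 0.17, adjusted p = 0.821). Of 27 tested genes of endoplasmic reticulum stress Vldlr, a lipoprotein receptor, rose by 0.51 (adjusted p = 0.0333) and Dnajc3, a chaperone partner, by 0.20 (adjusted p = 0.0114), whereas Ddit3, the stress factor CHOP, differed by -0.03 (adjusted p = 0.902). Without the Rs293 or the Rs304 array of propiconazole 1 member of the stress list was called. Without the block or after scaling to equal median absolute deviation 0 were called. In the acute phase list 1 of 17 rose, Crp (0.36, SE 0.0677, adjusted p = 0.0062), and in the list of hepatocyte function 1 of 25, Apoa1 (0.14, adjusted p = 0.0256). Without the Rs293 or the Rs304 array the acute phase count was still 1 and that of hepatocyte function 0. On the values as deposited, after scaling to equal median absolute deviation or without the block both counts were 0. No gene was called among 23 of mitochondrial respiration, 13 of p53 and growth arrest and 14 of the cell cycle. Over all genes 1.75% were higher and 0.867% lower, and single calls in lists this small are not read as a change of the list.

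Few markers of other liver cells were called. Of the macrophage markers 7 of 18 were tested and 0 called, and their summed level was 2.49 to 4.71 units in propiconazole arrays and 2.16 to 4.27 in DMSO arrays. For stellate cells 11 of 19 were tested, with sums of 3.87 to 6.58 and 3.82 to 6.54 units, and Vim, an intermediate filament gene of many cell types, rose by 0.19 (adjusted p = 0.0414) but was not called without the Rs293 or the Rs304 array of propiconazole. For endothelium 2 of 15 and for cholangiocytes 5 of 11 were tested, with 0 called in either list. Their summed levels were 0.52 to 0.57 units in propiconazole arrays and 0.47 to 0.62 in DMSO arrays for endothelium, and 1.92 to 3.20 and 1.77 to 3.14 for cholangiocytes. In a culture, fewer cells of a type and less RNA per cell cannot be told apart.

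The dose of 30 uM was set between the neighbouring doses of the same compound. Against 10 uM no gene was called (limma, smallest adjusted p = 0.144), with 1178 genes at an unadjusted p below 0.05, and 3 were called when code Rs293 was left out. The largest of the named differences between these doses was that of Scd2, 0.73 with a 95% interval of 0.35 to 1.11. Against 30 uM, 100 uM gave 2012 called genes, 1018 higher (9.7% of those tested) and 994 lower (9.48%), 19.2% in all. The balance of directions moved with the scaling: 244 were higher and 1057 lower on the values as deposited. Without the block 490 were called, and without code Rs304 780.

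**Figure D3:**
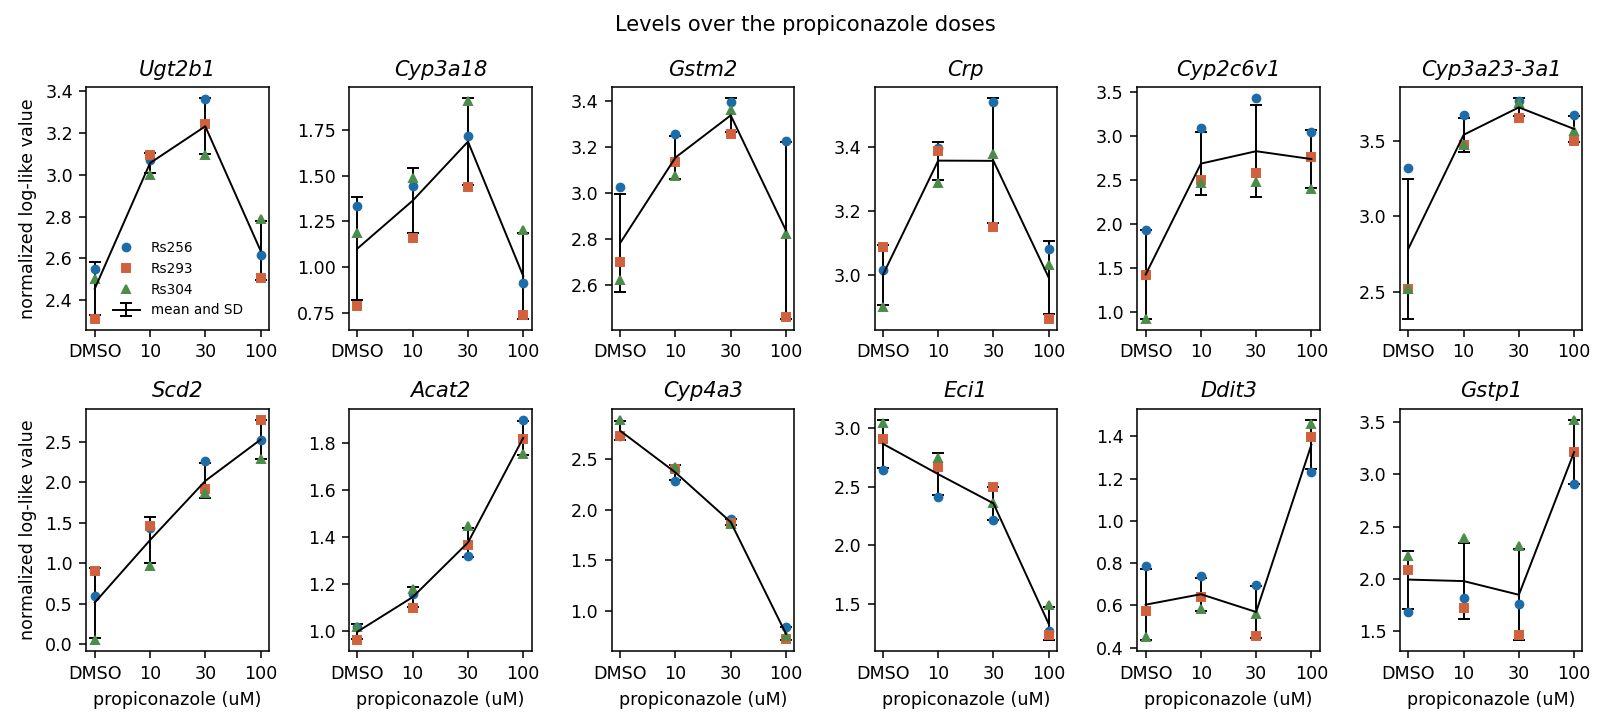
Normalized log-like values (vertical axes, in units) of 12 genes with DMSO and with propiconazole at 10, 30 and 100 uM, with points for the arrays of each Rs code and lines and bars for the mean and SD of 3 arrays. Ugt2b1, Cyp3a18 and Gstm2 stand highest at 30 uM, Cyp2c6v1 is level from 10 uM, Scd2 and Acat2 climb, Cyp4a3 and Eci1 fall, and Ddit3 and Gstp1 stand apart at 100 uM only.

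Some genes that rose at 30 uM were lower at 100 uM than at 30 uM. Of the 184 genes that rose at 30 uM, 24 were lower and 36 higher at 100 uM, beside 9.48% lower and 9.7% higher over all genes, and of the 91 that fell 48 were lower and 0 higher. These genes were chosen by their values in the same 30 uM arrays from which the step was taken, so nothing is read from the counts. The falls of single risen genes below carry the same choice, so their sizes may be too large and their p too small. Ugt2b1 averaged 2.45 ± 0.13 units with DMSO, 3.06 ± 0.05 at 10 uM, 3.23 ± 0.13 at 30 uM and 2.64 ± 0.14 at 100 uM (SD, n = 3 each). The step between the higher doses was -0.59 (SE 0.0984, adjusted p = 0.000133), and -1.09 on the values as deposited (adjusted p = 0.0259). For Cyp3a18 100 uM minus 30 uM was -0.73 (SE 0.149, adjusted p = 0.000952), and Gstm3 and Gstm2 differed by -0.55 (adjusted p = 0.00461) and -0.50 (adjusted p = 0.0146). Crp differed by -0.37 (adjusted p = 0.000425) and Cxcl9 by -0.48 (adjusted p = 0.0463). On the values as deposited Gstm2 missed the threshold (adjusted p = 0.0558), and without the Rs293 array of 30 uM Cxcl9 did (adjusted p = 0.0622). Without the block Cyp3a18, Gstm2, Gstm3 and Cxcl9 all missed it, with adjusted p of 0.0715, 0.095, 0.462 and 0.408. Against DMSO, with the same DMSO arrays each time, Cyp2c6v1 was 1.26 units higher at 10 uM, 1.40 at 30 uM and 1.31 at 100 uM, and Cyp3a23-3a1 was 0.75, 0.94 and 0.79 higher at these doses. The Cyp3a23-3a1 values near the top ranks partly coincided, such as 3.67 in Rs256 at both 10 and 100 uM. On the values as deposited its step from 30 to 100 uM was -0.84 (limma, adjusted p = 0.146), so its course over doses is not settled. Over all genes, 2 were called against DMSO at 10 uM (0.0191%) and 3075 at 100 uM (29.3%). Over the PXR and CAR list 1 of 17 was higher and 4 were lower at 100 uM than at 30 uM.

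The falls in fatty acid oxidation went further at 100 uM. Of the 26 PPARalpha targets 20 were lower and 0 higher than at 30 uM, also 20 on the values as deposited, with a median step of -0.44 units. After scaling to equal median absolute deviation 16 were lower, and without the block 12. Without the Rs293 or the Rs304 array of 30 uM 18 were lower. Angptl4 stepped by -1.34 (adjusted p = 3.91e-08), Cyp4a3 by -1.11 (adjusted p = 3.92e-05) and Eci1 by -1.03 (adjusted p = 4.01e-09), and Creb3l3, a liver transcription factor that works with PPARalpha, by -1.19 (adjusted p = 1.86e-05). Hrg, a plasma protein of the liver, stepped by -1.21 (adjusted p = 4.18e-07). For genes that had not been called at 30 uM the step up to 100 uM was the main change: Gstp1 rose by 1.36 (adjusted p = 8.98e-06), Sfn, a p53 target, by 1.20 (adjusted p = 3.35e-11), Fabp5 by 1.07 (adjusted p = 9.05e-07), the aldo-keto reductase Akr1b8 by 1.0 (adjusted p = 0.000536), Serpina3c by 0.99 (adjusted p = 4.85e-09) and Ddit3 by 0.79 (adjusted p = 4.69e-07). Of these 6, Fabp5 was not called on the values as deposited (0.60, adjusted p = 0.128) and Serpina3c not without the block (adjusted p = 0.0502). Of the 25 NRF2 targets 10 were higher and 3 lower at 100 uM than at 30 uM. The counts were 3 and 1 on the values as deposited, and 5 and 0 without the block. The sterol synthesis list gave 5 higher and 1 lower of 17, with a median of 0.19 that became -0.13 on the values as deposited, so the direction of this list above 30 uM was not settled.

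At 30 uM propiconazole was compared with 2 related triazoles under the same exposure. Myclobutanil, triadimefon and propiconazole share the triazole ring and differ in the rest of the molecule. Neither pair gave a called gene: propiconazole minus myclobutanil had 727 genes and propiconazole minus triadimefon 210 genes at an unadjusted p below 0.05, and with p adjusted over both pairs the smallest was 0.527. When code Rs293 was left out, 4 genes were called as higher with propiconazole than with myclobutanil. A missed threshold does not show that the compounds act alike, so intervals are given.

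Scd2 had the widest estimated gap to myclobutanil among the named genes, followed by Cyp4a3 and Fabp1. Scd2 had 2.26, 1.92 and 1.86 units with propiconazole and 1.43, 1.69 and 0.80 with myclobutanil, with a 95% interval of the difference of 0.33 to 1.09. Acss2 was 0.35 units higher (0.20 to 0.50), Fads1 0.32 (0.11 to 0.53) and Acat2 0.26 (0.14 to 0.39). Cyp4a3 differed by -0.44 (-0.78 to -0.10), Fabp1 by -0.43 (-0.84 to -0.02) and Fgf21 by -0.35 (-0.56 to -0.14). These intervals are for single genes and do not account for the number of genes. The estimate was 0.03 for Cyp2c6v1 (-0.24 to 0.29), 0.11 for Cyp3a23-3a1 (-0.21 to 0.43) and 0.05 for Ugt2b1 (-0.15 to 0.25). For Cyp3a23-3a1 it is limited by the shared top ranks described above. Against triadimefon, Cyp2c6v1 was 0.36 units higher with propiconazole (0.10 to 0.63), while Scd2 differed by -0.23 (-0.61 to 0.16), Acat2 by 0.01 (-0.12 to 0.13) and Ces1d by 0.00 (-0.41 to 0.42).

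**Figure D4:**
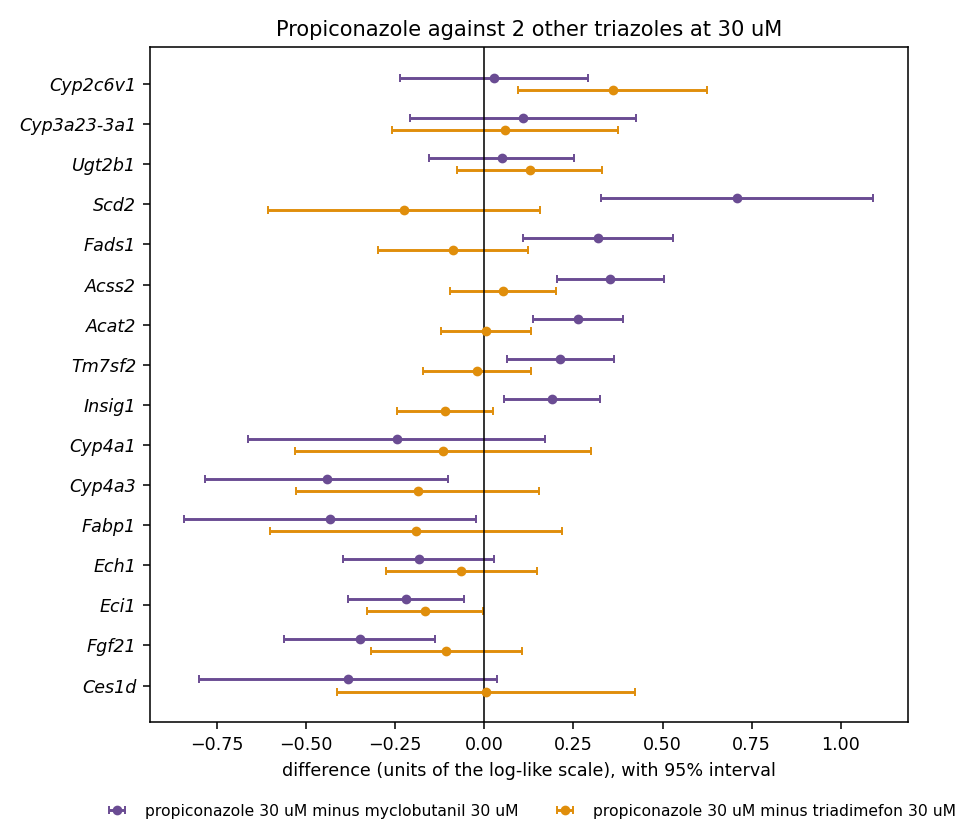
Difference of propiconazole 30 uM minus myclobutanil 30 uM (purple) and minus triadimefon 30 uM (orange) for 16 genes (horizontal axis, in units), with 95% intervals of the fit that are not adjusted for the number of genes. Against myclobutanil Scd2, Fads1, Acss2, Acat2, Tm7sf2 and Insig1 lie above 0 with their whole interval, and against triadimefon Cyp2c6v1 does.

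Each of these treatments was compared with the same 3 DMSO arrays, so their values are given side by side only. Minus DMSO, Scd2 stood at 1.50 with propiconazole, 0.79 with myclobutanil and 1.73 with triadimefon, all at 30 uM. Phenobarbital, a CAR activator, and PCN, a PXR activator, gave 0.64 and 0.66 for this gene, fitted over codes that differed. With PCN Scd2 had 0.99 (Rs293) and 1.28 units (Rs304), against 0.90 and 0.05 in the DMSO arrays of these codes. With phenobarbital it had 1.11, 1.92 and 0.43 units in the Rs256, Rs293 and Rs304 arrays, against 0.59, 0.90 and 0.05 with DMSO. Other genes also split the arrays of one control. Ces1d had 0.83, 0.31 and 1.49 units in the Rs256, Rs293 and Rs304 arrays of phenobarbital. With PCN it had 1.26 (Rs293) and 0.63 (Rs304), and DMSO gave 1.77, 1.32 and 1.71 in the order of codes. Cyp2c6v1 was above DMSO in every array of both controls. The cause of the split was not tested, and the means and counts of both controls below rest on these arrays. For Cyp2c6v1 propiconazole gave 1.40, phenobarbital 1.28 and PCN 1.22, and for Acat2 they gave 0.38, 0.04 and 0.14. Propiconazole at 30 uM called 275 genes, triadimefon 110 (1.05% of those tested), myclobutanil 2 (0.0191%), phenobarbital 2 (0.0191%) and PCN 3 (0.0286%), and a difference between these counts was not tested.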

How the data were processed

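Total RNA of primary rat hepatocytes was converted to biotinylated cRNA and measured on Affymetrix rat genome arrays, per the labels' protocols. The deposited table holds 1 score per probe set and array on a log-like scale, 31099 probe sets by 35 arrays; how the authors summarised, corrected and normalized it is not given in the sources used here. Arrays were quantile normalized. Each gene took the brightest probe set naming it alone (20826 probe sets name 1 gene, 436 several, 9780 none), and 10490 of 14217 genes were tested, those that exceeded the array median on 2 or more of 35 arrays.

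Differences were fitted with limma 3.58.1 (lmFit, eBayes, two-sided) in R 4.3.3 over all 35 arrays in 12 groups, with Rs code as a fixed block. Genes were called at a Benjamini-Hochberg adjusted p below 0.05. The code pairs the arrays: deviations from the group means of propiconazole 30 uM and DMSO arrays of one code correlated at 0.707, 0.600 and 0.531. Alternatives changed the normalization, block, filter, feature and arrays. The number of arrays limits the precision. The fit was tested on simulated data beforehand. The simulation gave a gene the same noise on every array and held no outlying arrays, so it does not bear on those here.

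Named genes were the 15 largest called rises and falls, called members of 20 lists, a fixed set of marker genes, and the 5 largest called changes each way in the other contrasts. Members and lists were chosen with earlier results of these data known.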

Additional observations from a re-analysis of the deposited data

How the results depend on the processing

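The count of 275 genes for propiconazole 30 uM minus DMSO depended on the processing. It was 138 on the values as deposited, 50 after scaling to equal median absolute deviation (46 higher, 4 lower), 4 without the replicate block (the pairing by Rs code) and 36 in a fit of the 2 groups alone with the replicate block. Median centring gave 215 (200 higher, 15 lower). Leaving out 1 code or 1 array gave 37 to 220, the lowest without code Rs304. Among single arrays the lowest count was 84, without the Rs293 DMSO array. 3 settings were chosen after seeing the data: without both outlying propiconazole arrays 387 genes were called (126 higher, 261 lower; 88 of them among the 275), a fit that leaves 1 propiconazole 30 uM array, assumed to vary like the other groups, and so no sign of stability, on the values as deposited without the Rs293 array 3, and on the values as deposited without the block 2. Of 61 named called genes 25 were also called on the values as deposited, 19 in each of the 6 fits without an array and 4 in each of the 3 fits without a code (Scd2, Cyp2c6v1, Ugt2b1 and Ech1), and 0 of them changed sign in any alternative run. For 100 uM minus 30 uM the count of 2012 became 1301 on the values as deposited, 977 after scaling, 490 without the replicate block, 110 with the 2 groups alone, 3145 over single probe sets in place of genes, and 780 to 1944 without 1 code or array. Median centring gave 302 higher and 1064 lower. Leaving out a code or array gave 0 to 3 genes for 30 uM minus 10 uM and 0 to 4 for propiconazole minus myclobutanil. The cause of these shifts was not tested.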
